A study of Mus musculus with 6 samples.

Results

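The IL-1 and IL-36 family cytokines were examined in primary mouse keratinocytes with and without iASPP, the product of Ppp1r13l. The family comprised 10 genes picked by name from a table of raw read counts that held 55367 gene names: the agonists Il1a, Il1b, Il18 and Il33, the IL-36 agonists Il1f6, Il1f8 and Il1f9, the antagonists Il1rn and Il1f5, and the decoy receptor Il1r2. All 10 were present in the table, and 9 had enough reads to enter the test across 14916 genes; Il1b did not. In iASPP KO cells Il1a and Il1f6, Il1f9 and Il1f5 were higher than in iASPP WT cells, by 1.60-fold for Il1f5 to 3.51-fold for Il1f6 with batch taken into account. Of these, only Il1a and Il1f6 passed the threshold in each alternative fit that kept the batch term. No member was significantly lower.

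Bulk RNA sequencing covered 3 iASPP KO and 3 iASPP WT libraries, 1 of each in each of 3 labelled batches. All 6 libraries came from Ppp1r13lflox/flox;Cre+ERT keratinocytes of 2-day-old pups on a mixed C57BL/6 and 129/Sv background, grown in low-calcium medium on collagen. The Cre is expressed from the ROSA26 locus, so it is not restricted to keratinocytes, and it removes exon 8 of Ppp1r13l once tamoxifen is given. iASPP KO cells had tamoxifen added at the medium change 24 h after plating and iASPP WT cells had the same floxed genotype and the same Cre without the drug. Effects of tamoxifen or of active Cre therefore cannot be told apart from loss of iASPP. The labels give the tamoxifen concentration as 1 mM, and the methods give it in micromolar units. Batch is a label only, and neither the number of animals nor the separation of cultures behind it is given, so p-values measure the spread between these samples.

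Library totals ran from 20202517 to 25157117 counts, and 3 counts corresponded to 0.123 to 0.141 CPM (counts per 1000000 counted reads, with totals scaled by TMM). Ppp1r13l itself, counted over the whole gene, was lower in iASPP KO in each batch, with differences of -1.19, -1.34 and -1.82 on the log2 scale in batches 1, 2 and 3 and groups that did not overlap (log2 fold change -1.45, edgeR adjusted p = 0.00296). Basal keratinocyte markers summed to 22869 to 27418 CPM in the 6 libraries. Suprabasal markers summed to 1054 and 1144 CPM in the batch 3 libraries and to 2824 to 3726 CPM in the others, while fibroblast markers summed to 498 and 728 CPM in batch 3 and to 54.4 to 75.8 CPM elsewhere. Among 17 macrophage and Langerhans cell markers, the summed level was 68.7 to 95.4 CPM in iASPP KO and 46.7 to 75.8 CPM in iASPP WT, and C1qc was at 0 in every library. Of 9 neutrophil markers Ly6g, Camp, Retnlg and Elane were also at 0 throughout. The 9 summed to 1.51, 2.87 and 0.892 CPM in iASPP KO and to 1.03, 0.943 and 0.802 CPM in iASPP WT, in batches 1, 2 and 3. Cxcr2, the 1 neutrophil marker tested, had 25, 38 and 19 reads in iASPP KO and 16, 15 and 8 in iASPP WT (log2 fold change 1.07, edgeR adjusted p = 0.611).

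IL-1α and IL-1β both act through IL-1R1 together with the shared co-receptor IL-1RAP, and IL-1Ra, encoded by Il1rn, occupies IL-1R1 without signalling. The IL-36 cytokines act on a separate receptor, encoded by Il1rl2, with the same co-receptor, and the IL-36 receptor antagonist, encoded by Il1f5, blocks it. Keratinocytes are a main source of IL-1α, the IL-36 cytokines and IL-33 in skin, where excess IL-36 activity is known from pustular psoriasis. Several family cytokines are made as precursors that need cleavage or cell damage for full activity, so their mRNA levels are not a measure of active cytokine.

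Except for Il1r2, Il18 and Il33, the family genes lie on mouse chromosome 2. In the GRCm38 coordinates of the count table, Il1f8 at chr2:24153161-24160519, Il1f9 at chr2:24186476-24193568, Il1f6 at chr2:24215418-24225702, Il1f5 at chr2:24276954-24283426 and Il1rn at chr2:24336853-24351494 follow each other on the plus strand within 198 kb. Il1a at chr2:129299610-129309972 and Il1b at chr2:129364570-129371139 lie 105 Mb further on, on the minus strand and 54.6 kb apart. Il1r2 is at chr1:40074079-40125231, Il18 at chr9:50554827-50581840 and Il33 at chr19:29925114-29960718. Each position spans the exons that the authors counted for that gene. No exon base of a member was shared with another gene of the same strand. On the opposite strand, 222 exon bases of Il1a lay opposite exons of Gm14023 and 25 of Il1b opposite exons of Il1bos. Reads of 42 bases could match another gene as well over 3.32% of Il1f8, 3.02% of Il1f9 and 0.359% of Il1rn, and over none of the other members.

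AP-1, a dimer of Jun, Fos and ATF proteins, recognises TGANTCA, and the sequence upstream of the RefSeq start sites was read for it. RefSeq promoters were found for 9 of the 10 members by symbol, with 13 windows of 250 bases; Il1f6 had no entry. TGANTCA, which reads the same on both strands, occurred in 3 of these windows, upstream of Il1a, Il1f8 and Il1rn, and in 6.75% of 32851 RefSeq promoter windows of the same length. The cyclic AMP response element TGACGTCA, which cannot be a match of TGANTCA, was in 1.55% of all windows and the NF-κB consensus in 3.9%, and neither was in a member's window. The 250 bases before the start are shown for the 3 genes with the AP-1 letters, in capitals, and for Il1f9, an agonist that rose and had none. They are from GRCm38.p6, written 5′ to 3′ in the direction of transcription: chr2:129309973-129310222 on the minus strand for Il1a, and on the plus strand chr2:24152922-24153171 for Il1f8, chr2:24336610-24336859 for Il1rn and chr2:24186226-24186475 for Il1f9.
Il1a: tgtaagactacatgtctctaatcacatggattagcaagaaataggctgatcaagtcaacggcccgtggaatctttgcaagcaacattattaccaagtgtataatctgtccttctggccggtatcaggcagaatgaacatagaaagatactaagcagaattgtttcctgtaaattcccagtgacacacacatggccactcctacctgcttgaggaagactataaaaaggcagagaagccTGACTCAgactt
Il1f8: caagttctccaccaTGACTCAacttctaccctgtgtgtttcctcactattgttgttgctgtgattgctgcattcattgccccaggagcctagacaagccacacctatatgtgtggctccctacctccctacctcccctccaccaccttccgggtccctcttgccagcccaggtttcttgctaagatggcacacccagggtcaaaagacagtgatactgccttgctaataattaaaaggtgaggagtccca
Il1rn: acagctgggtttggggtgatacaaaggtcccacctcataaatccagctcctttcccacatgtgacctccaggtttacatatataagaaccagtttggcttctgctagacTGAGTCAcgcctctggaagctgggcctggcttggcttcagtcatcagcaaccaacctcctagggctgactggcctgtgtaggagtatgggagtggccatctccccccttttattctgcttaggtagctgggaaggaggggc
Il1f9: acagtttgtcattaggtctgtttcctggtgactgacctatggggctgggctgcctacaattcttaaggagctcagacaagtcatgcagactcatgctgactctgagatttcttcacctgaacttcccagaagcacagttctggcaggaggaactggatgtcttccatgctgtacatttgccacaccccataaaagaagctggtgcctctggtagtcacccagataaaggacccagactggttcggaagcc
The match lies 12 to 6 bases before the start of Il1a, 236 to 230 bases before that of Il1f8 and 141 to 135 bases before that of Il1rn. These are matches of letters only, and of the 3 genes Il1a alone passed the test for a higher level in iASPP KO, as described next.

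Of the IL-1 agonists, Il1a was expressed and Il1b was barely detected. Levels are given as RPKM (CPM divided by the exon length in kilobases), with libraries in the order of batches 1, 2 and 3. Il1a stood at 49.6, 105 and 23.5 RPKM in iASPP KO and at 23.8, 52.7 and 13.4 RPKM in iASPP WT. Within every batch the iASPP KO library was the higher, by 1.06, 0.99 and 0.81 on the log2 scale, although the groups overlap because batch 2 was high and batch 3 low in both conditions. The fit with batch gave a log2 fold change of 0.96 (SE 0.12, 95% interval 0.69 to 1.22, edgeR quasi-likelihood test, Benjamini-Hochberg adjusted p = 0.00276 over all tested genes), a fold of 1.94. Il1b, the form that myeloid cells release after caspase-1 cleavage, had 4, 14 and 1 reads in iASPP KO and 17, 1 and 0 in iASPP WT. No direction was shared by the batches, and a count of 0 allows up to 3 counts in that library.

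Across all tested genes the same test called 2.17% significantly higher and 1.95% significantly lower in iASPP KO. Among the 9 tested members 4 were higher and 0 lower, with 5 and 0 at an unadjusted p under 0.05, where 8.66% and 8.09% of all tested genes stood. The median log2 fold change of the 9 was 0.55, beside 0.01 over all tested genes. A higher level in iASPP KO in all 3 batches was found for 5 of the 9 and for 19.5% of all tested genes. The members were chosen with earlier results of these data known, so these shares are a description only. Under DESeq2, with the same batch term, the side of the threshold was the same for each member with an adjusted p, and Il1r2 was given none. Without the batch term 0 members passed, and the adjusted p of each of the 4 was 0.973.

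**Figure D1:**
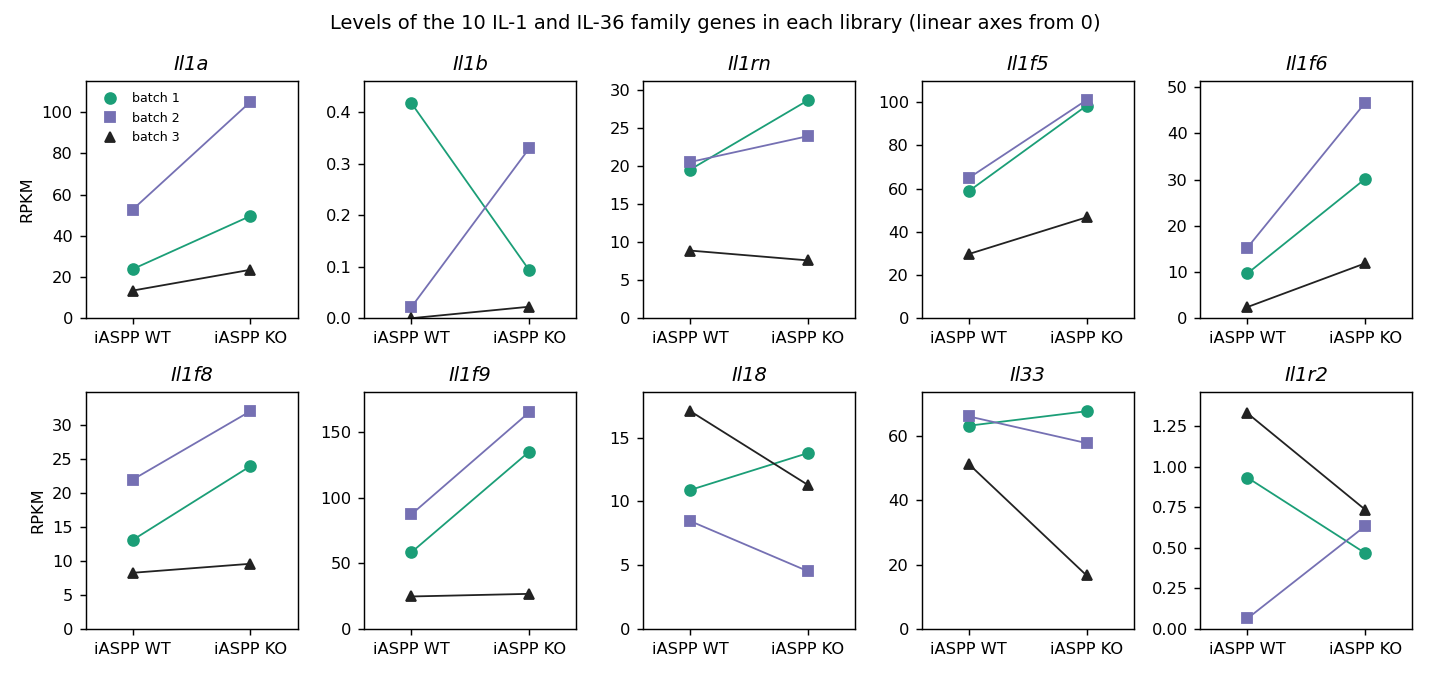
RPKM (linear axes from 0) of the 10 family genes in each library, with lines joining the iASPP WT and iASPP KO libraries of a batch. For Il1a, Il1f5, Il1f6, Il1f8 and Il1f9 all 3 lines go up, as for Il1f6 from 9.71, 15.3 and 2.42 to 30.2, 46.7 and 11.9 RPKM, and batch 3 is the lowest in both conditions.

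Among the IL-36 agonists, Il1f6, which encodes IL-36α, rose most. It stood at 30.2, 46.7 and 11.9 RPKM in iASPP KO and at 9.71, 15.3 and 2.42 RPKM in iASPP WT. The iASPP KO library was higher in each batch, by 1.63, 1.60 and 2.25 on the log2 scale, and only the batch 3 iASPP KO library fell among the iASPP WT values. The log2 fold change was 1.81 (SE 0.21, 95% interval 1.35 to 2.28, edgeR adjusted p = 0.00192). Il1f9, which encodes IL-36γ, had the highest mean level of the members in iASPP KO cells, although Il1f5 was above it in batch 3. It stood at 135, 165 and 26.7 RPKM in iASPP KO and at 58.3, 87.2 and 24.7 RPKM in iASPP WT. Its difference was 1.21 and 0.92 on the log2 scale in batches 1 and 2 and 0.11 in batch 3, so the groups overlap and the batch 3 libraries were close to each other. The fitted log2 fold change of 0.76 (SE 0.18, 95% interval 0.35 to 1.17) was just past the threshold, with an edgeR adjusted p of 0.0490, and was not past it without batch 1 (adjusted p = 0.235), without batch 2 (adjusted p = 0.228) or with robust dispersions (adjusted p = 0.0689). Il1f8, which encodes IL-36β, stood at 24.0, 32.1 and 9.60 RPKM in iASPP KO and at 13.1, 22.0 and 8.27 RPKM in iASPP WT. It was higher in iASPP KO in every batch, by 0.88, 0.54 and 0.21 on the log2 scale, but its log2 fold change of 0.55 (95% interval 0.14 to 0.96) had an adjusted p of 0.149. Without batch 3 it passed the threshold (log2 fold change 0.71, adjusted p = 0.00359), where 793 of all genes were called higher, beside 323 with all batches. It was 0.39 without batch 1 (adjusted p = 0.601) and 0.56 without batch 2 (adjusted p = 0.461).

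The antagonist Il1f5 rose as well. Its level was 98.4, 101 and 46.7 RPKM in iASPP KO and 58.8, 64.9 and 29.7 RPKM in iASPP WT. Each batch showed nearly the same difference, 0.74, 0.64 and 0.66 on the log2 scale, while the low level of both batch 3 libraries made the groups overlap. The log2 fold change was 0.68 (SE 0.11, 95% interval 0.44 to 0.92, edgeR adjusted p = 0.00837), and 0.70 with an adjusted p of 0.0538 without batch 2. Il1rn, the IL-1 receptor antagonist, stood at 28.6, 23.9 and 7.59 RPKM in iASPP KO and at 19.5, 20.5 and 8.88 RPKM in iASPP WT. It was higher in iASPP KO in batches 1 and 2 and lower in batch 3, with a log2 fold change of 0.19 (95% interval -0.14 to 0.52, adjusted p = 0.613). Without batch 3 the log2 fold change was 0.39 and passed the threshold (adjusted p = 0.0321). It was 0.00 without batch 1 (adjusted p = 0.997) and 0.17 without batch 2 (adjusted p = 0.86).

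**Figure D2:**
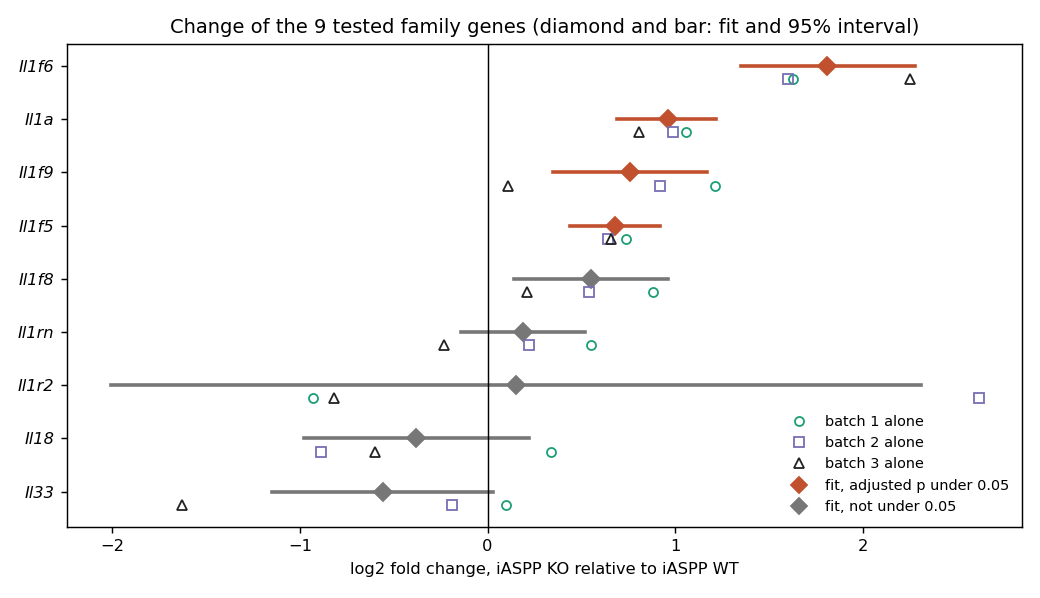
Change of the 9 tested members between iASPP WT and iASPP KO (log2 fold change, positive where iASPP KO was higher), showing the fit and its 95% interval as diamond and bar and the difference in each batch alone as open symbols. The fits run from -0.56 for Il33 to 1.81 for Il1f6, and the interval of Il1r2, from -2.01 to 2.31, is the widest of the 9.

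Il33 and Il18 did not share this direction. Il33, an alarmin held in the nucleus of keratinocytes, stood at 67.6, 57.7 and 16.6 RPKM in iASPP KO and at 63.1, 66.0 and 51.2 RPKM in iASPP WT. The batch 3 iASPP KO library was far below the other 5, and the differences of 0.10, -0.19 and -1.63 on the log2 scale were unlike each other. The log2 fold change was -0.56 (95% interval -1.15 to 0.03, edgeR adjusted p = 0.331), and -0.05 without batch 3. Of 10 alternative settings, only testing all genes without a filter on low counts put Il33 past the threshold (-0.55, adjusted p = 0.00161). DESeq2 gave -0.56 with an adjusted p of 0.669. In batch 3 the fibroblast markers, which summed to 498 CPM in iASPP KO and 728 CPM in iASPP WT, were also lower in iASPP KO, and their part in the Il33 value was not tested. Il18, a caspase-1 substrate that acts through Il18r1, stood at 13.8, 4.53 and 11.3 RPKM in iASPP KO and at 10.9, 8.47 and 17.1 RPKM in iASPP WT. It was higher in iASPP KO in batch 1 and lower in batches 2 and 3, and the log2 fold change of -0.38 had a 95% interval of -0.98 to 0.22 (adjusted p = 0.563).

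The decoy receptor Il1r2, which binds IL-1 without signalling, had few reads. It had 20, 27 and 33 reads in iASPP KO and 38, 3 and 57 reads in iASPP WT. The groups overlap, and the difference had the opposite sign in batch 2, where the iASPP WT library had 3 reads. The log2 fold change of 0.15 had a 95% interval of -2.01 to 2.31 (edgeR adjusted p = 0.963), which covers a change of either sign larger than that of any called member. Il1f10, a related gene of the chromosome 2 cluster that encodes IL-38, was as low, with 14, 9 and 9 reads in iASPP KO and 16, 22 and 6 in iASPP WT (adjusted p = 0.919).

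Levels per kilobase put the members in slightly different orders in the 2 conditions. By mean RPKM in iASPP WT the order was Il33 (60.1 ± 7.85, SD, n = 3), Il1f9 (56.7 ± 31.3), Il1f5 (51.1 ± 18.8), Il1a (30 ± 20.4), Il1rn (16.3 ± 6.43), Il1f8 (14.5 ± 6.99), Il18 (12.1 ± 4.43) and Il1f6 (9.15 ± 6.47). In iASPP KO it was Il1f9 (109 ± 72.6), Il1f5 (82.2 ± 30.8), Il1a (59.3 ± 41.4), Il33 (47.3 ± 27.1), Il1f6 (29.6 ± 17.4), Il1f8 (21.9 ± 11.4), Il1rn (20 ± 11) and Il18 (9.85 ± 4.78). Neighbours among these 8 overlapped between libraries in both conditions. Compared within a library, the order held in all 3 iASPP KO libraries for Il33 over Il1f6 and Il1f6 over Il1f8. It held in all 3 iASPP WT libraries for Il1f5 over Il1a and Il1a over Il1rn. For the other neighbours among the 8 the order is a description of means. Il1r2 (0.776 ± 0.647 in iASPP WT and 0.612 ± 0.135 in iASPP KO) and Il1b (0.146 ± 0.235 and 0.148 ± 0.161) were below the lowest library of every other member.

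Batch moved most of the family. The test of the batch terms called 6 of the 9 tested members, Il1a, Il1rn, Il1f5, Il1f6, Il1f8 and Il1f9, beside 15.8% of all tested genes. For these 6 the batch 3 library was the lowest of its condition in iASPP KO and in iASPP WT. The adjusted p of the batch terms ran from 6.3e-05 for Il1a to 0.00335 for Il1f8, and it was 0.0789 for Il33 and 0.0775 for Il18. Batch 3 was also the batch with the low suprabasal and high fibroblast marker sums given above, and their part in these levels was not tested. Whether the effect of iASPP loss differed between batches cannot be tested with 1 library of each condition in a batch.

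The balance between members within a library was taken as the log2 ratio of counts per kilobase. Il1rn relative to Il1a and Il1b together was -0.80, -2.14 and -1.64 in iASPP KO and -0.32, -1.36 and -0.60 in iASPP WT. The antagonist was thus lower relative to the agonists in iASPP KO in each batch, by a mean difference of -0.77 ± 0.28 (SD, n = 3). Il1f5 relative to Il1f6, Il1f8 and Il1f9 was -0.94, -1.26 and -0.05 in iASPP KO and -0.46, -0.94 and -0.26 in iASPP WT. Here the differences were -0.48, -0.32 and 0.21, so batch 3 went the other way and the mean of -0.20 was smaller than its SD of 0.36. The ratio of Il1r2 to Il1r1 differed by -0.19, 4.30 and -0.30, the large value coming from the 3 Il1r2 reads of the batch 2 iASPP WT library. No test was made of the ratios.

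Within the IL-36 agonists the composition differed too. Il1f6 made up 16.0, 19.2 and 24.7% of their summed RPKM in iASPP KO and 12, 12.3 and 6.84% in iASPP WT, with no overlap. Il1f8 made up 12.7, 13.2 and 19.9% against 16.1, 17.7 and 23.4%, and Il1f9 71.4, 67.6 and 55.4% against 71.9, 70.0 and 69.8%. Il1f9 remained the main agonist transcript in all 6 libraries. The summed level was 189, 244 and 48.2 RPKM in iASPP KO and 81, 125 and 35.4 RPKM in iASPP WT.

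**Figure D3:**
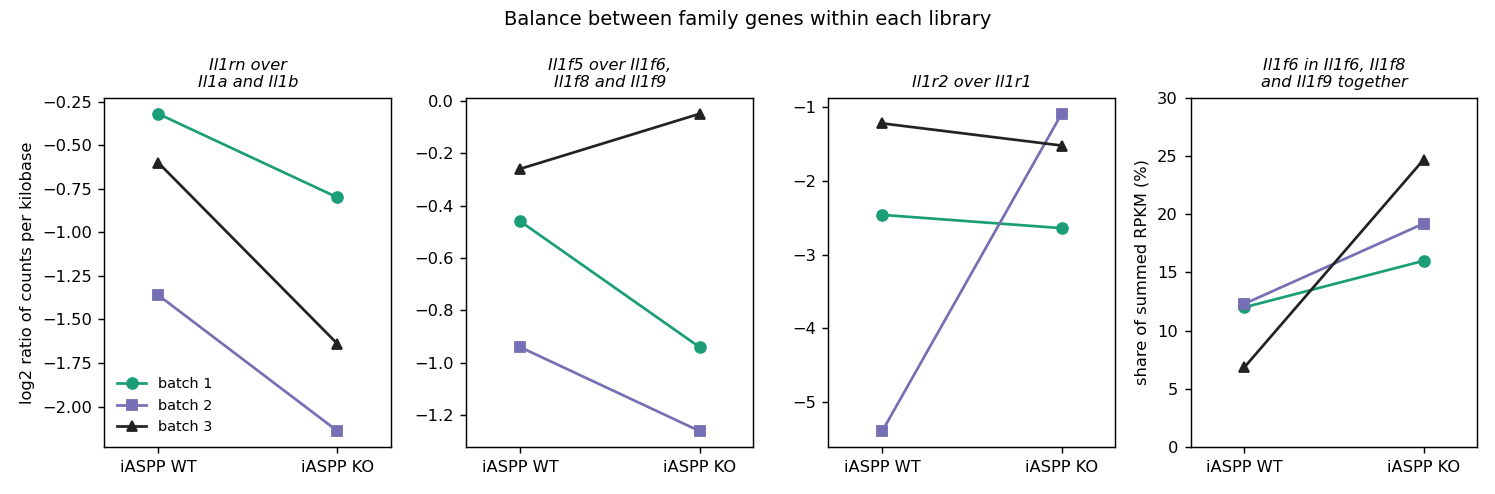
Log2 ratios of counts per kilobase within each library (the 3 panels on the left) and the share of Il1f6 in the summed RPKM of Il1f6, Il1f8 and Il1f9 (right panel, in %), with lines joining the libraries of a batch. Il1rn over Il1a and Il1b is lower in iASPP KO in all 3 batches, while the share of Il1f6 rises from 12, 12.3 and 6.84% to 16.0, 19.2 and 24.7%.

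Along the chromosome 2 cluster the change was not uniform. From Il1f8 to Il1rn the log2 fold changes of the tested genes were 0.55 for Il1f8, -0.42 for the pseudogene Gm13410, 0.76 for Il1f9, 1.81 for Il1f6, 0.68 for Il1f5, -0.33 for Il1f10 and 0.19 for Il1rn. The called genes Il1f9, Il1f6 and Il1f5 were consecutive among the tested protein-coding genes. The next tested gene beyond Il1rn, Psd4, had a log2 fold change of 0.21 (adjusted p = 0.569).

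**Figure D4:**
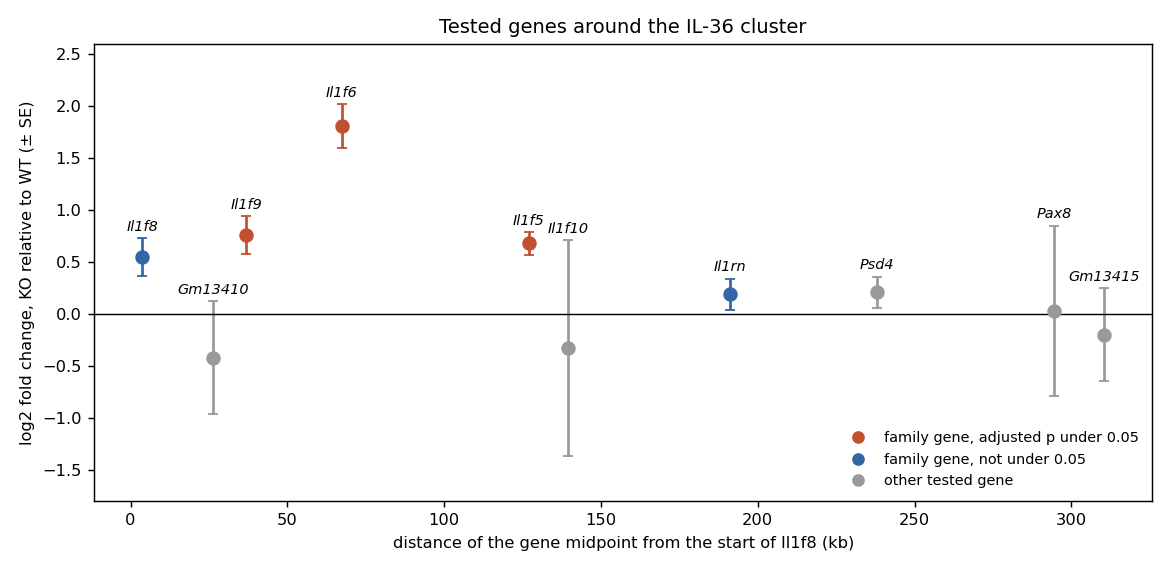
Log2 fold change (± SE) of the tested genes around the IL-36 cluster, against the distance of the gene midpoint from the start of Il1f8 in kb. Il1f9, Il1f6 and Il1f5 pass the threshold, with Il1f6 the highest at 1.81, and the error bar of Il1f10, with few reads, crosses 0.

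The genes whose levels over the 6 libraries were most like those of a called member were found among 10147 genes by the root-mean-square difference of mean-centred log2 CPM. For Il1f6 they were Sprr2h (0.16), Sprr2g (0.18) and Prr9 (0.26), of which the Sprr2 genes encode cornified envelope precursors. Their log2 fold changes were 1.71, 1.57 and 1.95, which the choice by likeness to Il1f6 over the same libraries largely fixes. For Il1a they were Gm15774 (0.16), Ereg (0.19) and C130089K02Rik (0.21), where Ereg encodes the EGF receptor ligand epiregulin. For Il1f5 they included Arhgap17 (0.08) and Mctp2 (0.10), and for Il1f9 they were Gm49601 (0.07), Procr (0.12) and the filaggrin-processing protease gene Asprv1 (0.13).

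One of the receptors that these ligands use was lower in iASPP KO. Of 9 receptor, co-receptor and related genes, all were tested, 0 were higher and 1 was lower, beside 2.17% and 1.95% of all tested genes, with a median log2 fold change of 0.11. The lower one was Il1r1, the signalling receptor for IL-1α and IL-1β, at 2.99, 1.38 and 2.13 RPKM in iASPP KO and at 5.19, 3.15 and 3.11 RPKM in iASPP WT. The groups did not overlap, and the log2 fold change was -0.84 (SE 0.19, 95% interval -1.27 to -0.42, edgeR adjusted p = 0.0371). Without batch 1 the adjusted p was 0.143, and without batch 2 it was 0.231. The IL-36 receptor Il1rl2 stood at 13.6, 13.1 and 9.29 RPKM in iASPP KO and at 13, 12.9 and 10.7 RPKM in iASPP WT, with a log2 fold change of -0.04 (adjusted p = 0.914). The shared co-receptor Il1rap had 0.11 (adjusted p = 0.718), the IL-33 receptor Il1rl1 -0.06 (adjusted p = 0.899) and the IL-18 receptor Il18r1 0.54 (adjusted p = 0.481).

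Downstream of the receptors, all 14 adaptors and kinases of the MyD88 pathway were tested, with 0 higher and 0 lower by edgeR, 1 in each direction at an unadjusted p under 0.05 (7.14%, beside 8.66% higher and 8.09% lower of all tested genes), and a median log2 fold change of 0.06. Of 21 genes for processing and release of the cytokines, 13 were tested and 0 passed in either direction, with 3 higher (23.1%) and 1 lower (7.69%) at an unadjusted p under 0.05. Among 34 genes known as keratinocyte responses to IL-1 or IL-36, 27 were tested, 9 were higher and 0 lower, beside 2.17% and 1.95% of all tested genes, and the median was 0.62. A higher level in iASPP KO in all 3 batches was found for 18 of the 27, or 66.7%, beside 19.5% of all tested genes. The list was drawn up with earlier results of these data known, so these shares are a description only. Many of these genes also respond to other stimuli, and the part of the cytokines in their change was not tested.

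The 9 higher response genes were chemokines, antimicrobial proteins and others. Ccl20, which attracts CCR6-bearing cells, stood at 204, 332 and 60.2 RPKM in iASPP KO and at 58.9, 116 and 6.43 RPKM in iASPP WT (log2 fold change 2.13, edgeR adjusted p = 0.00282, and 0.114 with robust dispersions). The neutrophil chemokine genes Cxcl1 and Cxcl5 had log2 fold changes of 1.20 (adjusted p = 0.00109) and 1.17 (adjusted p = 0.0203), and the monocyte chemokine gene Ccl2 1.16 (adjusted p = 0.00955). Cxcl5 did not pass without batch 1 (adjusted p = 0.0543) or without batch 2 (adjusted p = 0.306). The calprotectin subunits S100a8 and S100a9 and the β-defensin Defb14 had log2 fold changes of 1.98, 1.93 and 1.84, each with an adjusted p of 0.00109, and their groups did not overlap. Nfkbia, an NF-κB inhibitor, had 0.85 (adjusted p = 0.00433), and the angiogenic factor Vegfa 0.46 (adjusted p = 0.0458, and 0.204 without batch 1 or batch 2). Defb3, singled out after its values were seen because its fitted value of 4.23 stands apart in the plot of the pathway lists, had 13, 28 and 40 reads in iASPP KO and 0, 1 and 4 in iASPP WT and was not past the threshold (adjusted p = 0.0998).

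**Figure D5:**
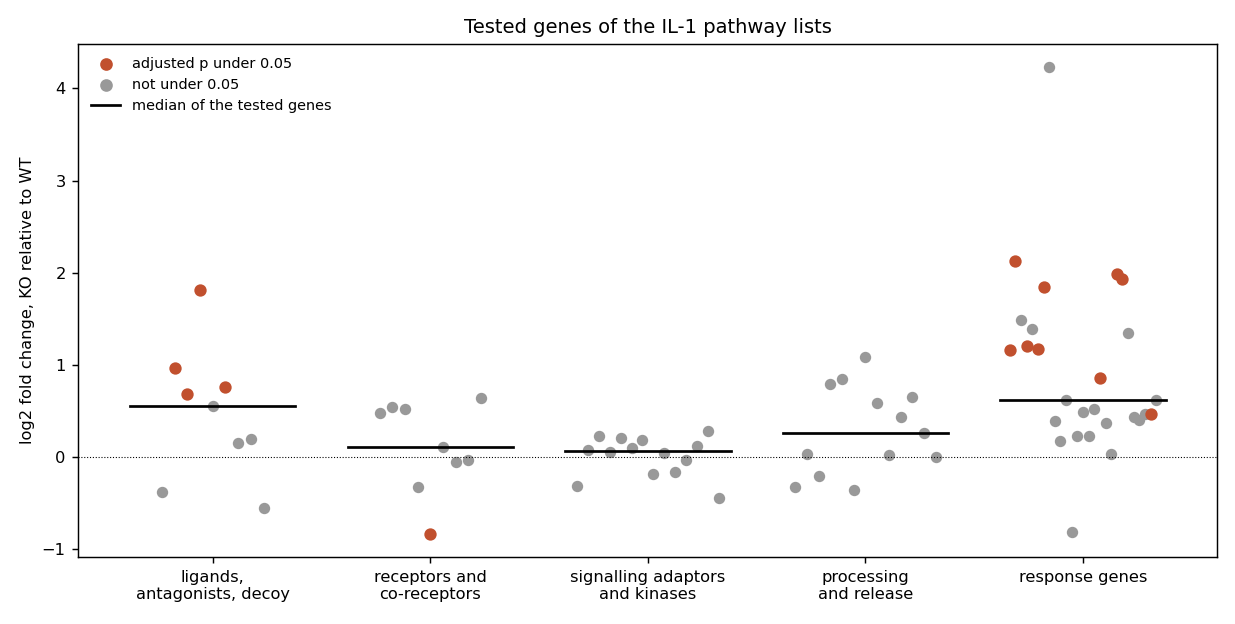
Log2 fold change, iASPP KO relative to iASPP WT, of each tested family gene and of each tested gene in 4 pathway lists, with called genes in red and a bar at the median of each list. Called genes are 4 of the 9 members, 1 receptor and 9 response genes, and none of the 14 adaptors and kinases or of the 13 processing genes by edgeR.

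Markers of other cells were considered beside these values because macrophages and neutrophils also make IL-1. The summed level of the 17 macrophage and Langerhans cell markers was 68.7, 75.3 and 95.4 CPM in iASPP KO and 46.7, 62.2 and 75.8 CPM in iASPP WT, higher in iASPP KO within each batch. One of the 8 tested, Csf1r, was higher (415, 641 and 123 reads against 194, 368 and 43, log2 fold change 1.11, edgeR adjusted p = 0.0206), beside 2.17% of all tested genes. In batch 2 Csf1r alone gave 28.8 CPM in iASPP KO and 15.1 CPM in iASPP WT, so the difference of the sums in that batch rested on this gene. In batch 1 most of the difference lay in Csf1r (18.5 against 9.09 CPM) and Cd68 (40.2 against 29.8 CPM). Cd68 was lower in iASPP KO in batch 2 (38.3 against 42.5 CPM). C1qa had 0, 0 and 48 reads in iASPP KO and 0, 0 and 13 in iASPP WT, and the Langerhans cell marker Cd207 had 6, 3 and 0 reads in iASPP KO and 0 in each iASPP WT library. Lyz2 had 108, 50 and 1392 reads in iASPP KO and 61, 27 and 1113 in iASPP WT. Adgre1 had 21, 1 and 54 reads in iASPP KO and 11, 0 and 15 in iASPP WT. Tyrobp had 3, 6 and 53 reads against 0, 0 and 27, and Mrc1 0, 9 and 100 against 0, 2 and 55. Some other markers of this list were mixed or went the other way. Fcer1g had 10, 0 and 20 reads in iASPP KO and 10, 32 and 17 in iASPP WT. Cd74 had 1, 1 and 0 reads against 0, 7 and 8, and Ptprc 7, 8 and 50 against 25, 0 and 48. Among the 7 T cell markers Trdc, a γδ T cell receptor gene, had 42, 48 and 0 reads in iASPP KO and 0, 1 and 0 in iASPP WT, while Cd3e, Cd3d and Trac were at 0 in every library. Cd2 went the other way, with 0 reads in each iASPP KO library and 15, 0 and 11 in iASPP WT. Thy1 had 11, 7 and 132 reads in iASPP KO and 9, 30 and 154 in iASPP WT, and Cd3g 1, 0 and 0 against 0, 0 and 4. The part of these cells in the change of the family was not tested. A few differentiation and fibroblast markers also differed. Of 10 suprabasal markers 1 was higher, Sbsn (log2 fold change 0.67, edgeR adjusted p = 0.00864). Krt10 (-1.31, adjusted p = 0.0330) and Flg (-0.89, adjusted p = 0.0428) were lower. Of 8 fibroblast markers Col1a2 (-0.55, adjusted p = 0.0428) and Col3a1 (-0.87, adjusted p = 0.0269) were lower and 0 were higher. Over all tested genes 2.17% were higher and 1.95% lower. The fibroblast list was mixed, with 0.81 for Pdgfra (adjusted p = 0.258) and -0.02 for Dcn (adjusted p = 0.980). In batch 2 the fibroblast sum was higher in iASPP KO (75.8 against 67.9 CPM). The part of these markers in the family's values was not tested. In bulk RNA fewer cells of a type and less RNA per cell cannot be told apart.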

How the data were processed

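Ribosomal RNA-depleted libraries of primary mouse keratinocytes were sequenced from 1 end for 42 bases. Alignment by the authors used STAR 2.7.3 and mm10, and they deposited raw counts per gene name, summed over exons by strand with featureCounts 2.0.0 (GENCODE annotation). The deposited results of their own DESeq2 comparison were not used.

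Genes were filtered by filterByExpr, which left 14916 of 55367, and were tested with edgeR 4.0.16 (R 4.3.3, TMM factors 0.916 to 1.11, quasi-likelihood fit, batch and condition as terms, Benjamini-Hochberg threshold 0.05). Within-batch differences are on the log2 CPM scale (prior count 2), and ratios used a prior count of 0.5. RPKM was computed from the table's exon lengths and TMM-scaled totals. The prior degrees of freedom were 8.17 beside 2 residual. Library totals of 20202517 to 25157117 counts set the precision, and a 0 count allows up to 3. Counting limits cover counting error only. The method was tested on simulated data.

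Samples were grouped by title and batch label. Deviations from group means correlated within batches (0.26, 0.308 and 0.512), and batch was a term because the study adjusted for it. No pair of replicates agreed within sampling noise.

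Members and lists were chosen with earlier results of these data known. Named genes were the members, Il1f10, Ppp1r13l, called genes of 4 pathway lists, 5 receptors, and the 3 genes nearest to each called member, of which 1 is not reported here. Alternatives covered the block, DESeq2, scaling, filters, robust dispersions and leaving out each batch.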

Additional observations from a re-analysis of the deposited data

How the results depend on the processing

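Without the replicate block, which ignores the pairing by batch, 0 genes were higher and 0 lower by edgeR (360 and 331 at an unadjusted p under 0.05), 0 members were higher (1 at an unadjusted p under 0.05), and 0 receptors were lower and 0 response genes higher. The Ppp1r13l change was then -1.38 (adjusted p = 0.973) and Il1r2 turned to -0.34. Over all genes, 538 were higher and 439 lower with DESeq2, and 624 and 491 without a filter on low counts, where 1 member was lower (Il33) and 1 processing gene was higher (Ctss). Leaving out each batch in turn gave 169 to 793 genes higher, 117 to 662 lower, 2 to 6 members higher, 0 to 1 receptors lower, 0 to 2 processing genes higher (Hax1 and Pycard without batch 3) and 7 to 14 response genes higher. Over the same omissions Il1r2 ran from -0.92 (without batch 2) to 0.95, Il1rl1 from -0.17 to 0.00 (without batch 1) and Il1rl2 from -0.09 to 0.04 (without batch 3), none past the threshold. Il1a and Il1f6 were past the threshold in each alternative that kept the batch term. The causes were not tested. Depth limits Il1b and Il1r2, and a single library of each condition in a batch limits the rest.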

Other observations

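Of the pathway genes with too few reads for the test, Csf2, a cytokine gene of the response list, had 5, 21 and 16 reads in iASPP KO and 0 in each iASPP WT library. The DNA sensor gene Aim2 had 10, 25 and 14 reads in iASPP KO and 9, 0 and 0 in iASPP WT. Nlrp3 had 8, 6 and 0 reads against 0 in all 3, while Il6 had 10, 0 and 0 against 0, 0 and 4. These genes were singled out after their values were seen, and no test was made of them. Casp1, which cleaves the IL-1β and IL-18 precursors, was tested and had 23, 21 and 63 reads in iASPP KO and 32, 5 and 31 in iASPP WT (edgeR adjusted p = 0.715).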
